A study of Homo sapiens with 12 samples.

Results

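The 51 translation initiation factors and their direct regulators were described in hCMEC/D3, a line of immortalised endothelial cells from human brain capillaries that stands in for the blood-brain barrier in culture. They were taken by name from the 58735 genes of the deposited table: every gene whose symbol starts with EIF1 to EIF6, together with the eIF4E-binding proteins, and without pseudogenes, read-through genes, Y-linked genes and the eIF2 kinases. Of the 12 libraries, 4 came from untreated cells (control), 4 from cells given SiNPs of 35 nm and 4 from cells given SiNPs of 58 nm, both at 100 µg/mL for 24 h. SiNPs are taken here to be silica nanoparticles. No vehicle is named for the controls, and the labels leave unsaid whether replicate libraries stem from separate cultures; p-values therefore rest on the spread of these libraries alone, which could be technical. Levels are deposited as FPKM (reads per kilobase of gene, scaled for library size). Different genes can be set side by side only roughly. The gene length used is that of all annotated exons together, and the rule for shared reads is unknown. Bulk RNA cannot separate fewer cells of a kind from less RNA per cell.

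Initiation factors bring the small ribosomal subunit and the initiator tRNA to the start codon of an mRNA. The eIF4 proteins read the cap: eIF4E binds it, eIF4G bridges it to the ribosome, and the helicase eIF4A, aided by eIF4B and eIF4H, opens the leader. The eIF4E-binding proteins compete with eIF4G for eIF4E until mTOR phosphorylates them. eIF3 is a scaffold on the small subunit, eIF2 carries the initiator tRNA and is recycled by eIF2B, and phosphorylation of eIF2 by stress kinases lowers general initiation. eIF1 and eIF1A guide start codon choice, eIF5 and eIF5B act when the subunits join, eIF5A carries the amino acid hypusine and helps peptide bonds form, and eIF6 keeps free large subunits apart from small ones.

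Of the 51 genes, 48 averaged 1 FPKM or more across all 12 libraries and were tested. The other 3 were EIF4E1B, at 0 in every library, EIF4E3, between 0.0179 and 0.0908 FPKM, and EIF4EBP3, between 0 and 1.21 FPKM. In cells given 35 nm particles, 17 of the 48 rose, 6 fell and 25 were not called. That is 47.9% called, against 35.4% of the 12176 genes tested (20.2% higher and 15.2% lower). Quantile normalization gave 9 higher and 7 lower, without the rises of EIF1, EIF1AD, EIF3A, EIF3G, EIF3I, EIF3K, EIF4B and EIF4G2, and removal of each library's trends with gene length and GC content gave 18 and 2. EIF4EBP1, EIF6, EIF5A, EIF4H, EIF3B and EIF4G1 rose the most, by 0.66 to 0.36 on the log2 scale, and EIF4A2 fell the most, by 0.33. The median log2 change was 0.06 over the 48 and 0.0031 over all genes tested. In cells given 58 nm particles, 2 rose (EIF4B and EIF5A) and 1 fell (EIF4A2), which is 6.25% against 4.13% of all genes (2.18% higher and 1.95% lower). Between the particle sizes, 3 were higher and 7 lower at 58 nm, which is 20.8% against 11.4% of all genes (3.54% higher and 7.81% lower). For this comparison upper-quartile rescaling gave 5 higher and 7 lower, voom on recovered reads 6 and 6, and the removal of trends 0 and 10, with 4 higher at an unadjusted p under 0.05. Without the 58 nm library of replicate 1, which stood apart, 1 rose and 1 fell at 58 nm, and 4 were higher and 10 lower than at 35 nm. The shares of all genes in this paragraph belong to the limma fit of all 12 libraries on the deposited FPKM. They do not apply to these alternatives. A gene is called where its adjusted p, from limma on log2(FPKM + 1) with Benjamini-Hochberg adjustment over the 12176 genes, was under 0.05. Both comparisons with control use the same 4 control libraries.

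Counting genes whose groups of 4 libraries did not overlap gave 17 higher and 5 lower at 35 nm, where 36.0% of all genes tested were so separated (19.7% higher, 16.3% lower). At 58 nm it gave 6 higher and 1 lower, where 13.5% of all genes were (7.56% higher, 5.92% lower). Between the particle sizes it gave 5 higher and 8 lower at 58 nm, where 16.2% of all genes were (6.29% higher, 9.9% lower).

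**Figure D1:**
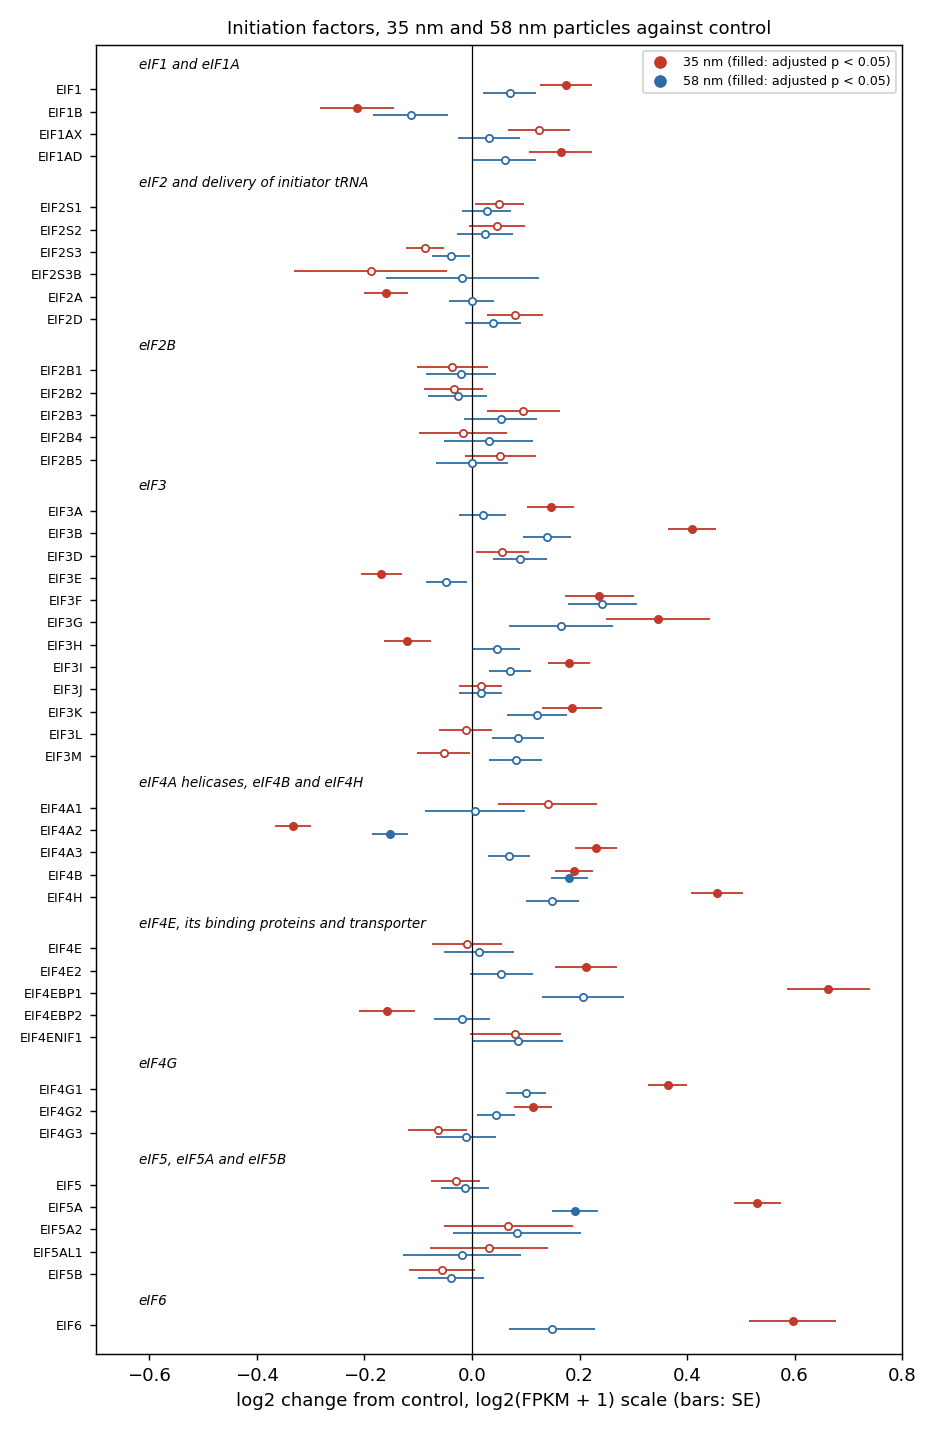
Log2 change from control of 46 initiation factor genes (EIF3C and EIF3CL are left out), with 35 nm in red and 58 nm in blue. Points are limma estimates on log2(FPKM + 1), bars are standard errors, and filled points had an adjusted p under 0.05; the rises at 35 nm lie to the right of the line and the largest is EIF4EBP1 at 0.66.

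Libraries held 9472317 to 10678269 gene reads. Mitochondrial genes held 1.89 ± 0.0597% (SD, n = 4) of them at 35 nm, 2.89 ± 0.173% at 58 nm and 3.12 ± 0.0558% without particles. The rank correlation, over genes, of a library's deviation from the mean library with GC content lay between -0.457 and -0.231 in controls, between 0.151 and 0.555 at 35 nm and between -0.296 and 0.358 at 58 nm. The 0.358 was that of 58 nm replicate 1, and the others of its group lay between -0.296 and -0.0936. The 58 nm library of replicate 1 stood apart: its counts differed from those of its group with a chi-square per degree of freedom of 5.87 to 7.12, against 1.96 to 4.31 for all other pairs within a group. Of 13 endothelial markers, 8 had a mean of at least 1 FPKM, led by ENG at 90.0 to 108 FPKM; CLDN5, KDR and FLT1 stayed below 1 FPKM. Of the 14 blood, epithelial, pericyte and neural markers measured, 2 had a mean of at least 1 FPKM (PDGFRB at 17.7 to 25.5 and ACTA2 at 1.30 to 2.43), and CD3E, CDH1, KRT5 and AQP4 were at 0 in every library. PDGFRB, a pericyte marker, averaged 19.1 FPKM at 35 nm, 23.2 at 58 nm and 24.0 in controls; its part in the results was not tested.

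The gene with the smallest p was EIF5A, and the residue that makes its protein unusual is encoded in the stretch shown here. The eIF5A proteins are the only known substrates of hypusination, and the capital letters mark the codon of the lysine that is converted (residue 50). The stretches are 60 coding bases of GRCh38 read from GENCODE 29 transcripts, for EIF5A and for the 2 other genes of the set that encode such a protein:
EIF5A: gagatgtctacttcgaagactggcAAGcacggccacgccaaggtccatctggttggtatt
EIF5AL1: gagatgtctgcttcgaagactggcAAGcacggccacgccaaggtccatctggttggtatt
EIF5A2: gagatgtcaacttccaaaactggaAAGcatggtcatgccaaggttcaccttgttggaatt
EIF5A lies on the plus strand (chr17:7309759-7311035, across an intron), EIF5AL1 is on the plus strand within 1 exon (chr10:79512773-79512832), and EIF5A2 is on the minus strand (chr3:170907076-170907683, across an intron). EIF5AL1 differs from EIF5A at 1 of these bases and EIF5A2 at 11, so reads of EIF5A and EIF5AL1 are hard to tell apart: 15.3% of the 50-base words of EIF5A also occur in other genes.

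EIF5A was at 146, 148, 148 and 153 FPKM in the 4 controls, at 226, 204, 224 and 208 FPKM at 35 nm, and at 179, 173, 164 and 165 FPKM at 58 nm. The 3 groups do not overlap, and the 58 nm libraries lie between the others. Its log2 change at 35 nm was 0.53 ± 0.0433 (SE; adjusted p = 2.6e-06, limma), a ratio of means of 1.45. At 58 nm it was 0.19 ± 0.0433 (adjusted p = 0.0278, limma), and 58 nm against 35 nm gave -0.34 (adjusted p = 0.000555, limma). The call at 58 nm was lost when any of control replicates 1 to 3 or 58 nm replicates 1 and 2 was left out, with an adjusted p of up to 0.0804 and, without the library that stood apart, 0.0556 (limma).

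Neither copy of EIF5A was called. In the order control, 35 nm and 58 nm, the paralog EIF5A2 was at 1.37 ± 0.168, 1.51 ± 0.411 and 1.52 ± 0.252 FPKM. EIF5AL1 was at 4.68 ± 0.630, 4.82 ± 0.794 and 4.60 ± 0.645 FPKM. EIF5AL1 took 2.3% to 4.8% of the reads given to the pair, so summing both leaves the pattern of EIF5A. Exons of EIF5A overlap GPS2 on the opposite strand over 8.6% of the exon length, and with no strand setting in the sources, reads of that overlap cannot be assigned. EIF5 and EIF5B, which act at start codon recognition and subunit joining, were not called in any comparison on the deposited FPKM: EIF5B was at 21.2, 23.3, 23.8 and 23.7 FPKM in controls, 21.4, 23.0, 20.5 and 23.4 at 35 nm, and 19.8, 22.8, 23.3 and 23.6 at 58 nm. These groups overlap, and its 95% interval at 35 nm ran from -0.19 to 0.08 (log2).

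**Figure D2:**
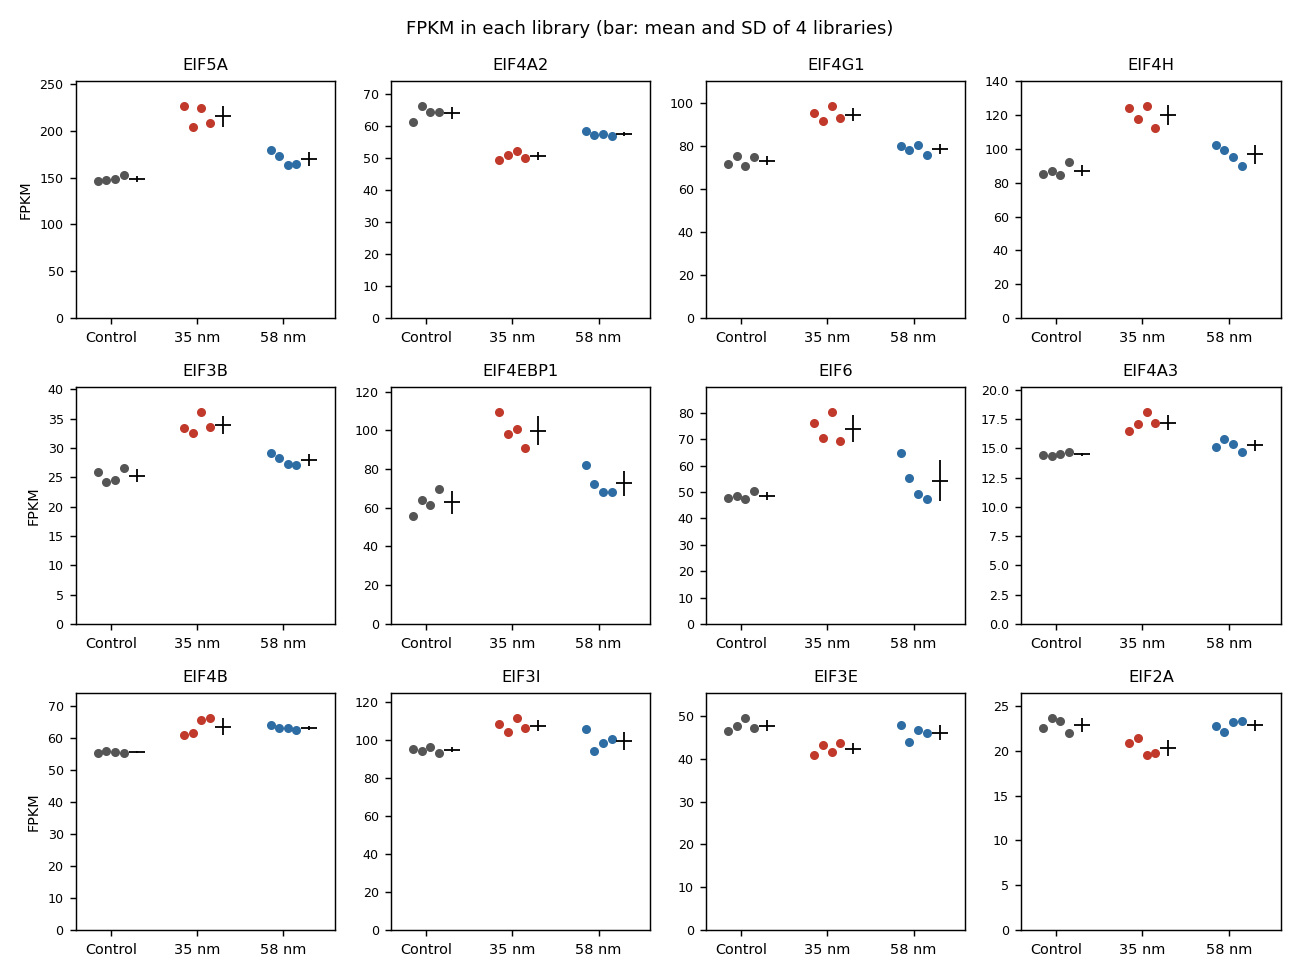
FPKM (y axis from 0) of the 12 initiation factor genes with the smallest p in any comparison, with 1 point for each library and the mean and SD of each group beside it. EIF5A runs from 204 to 226 at 35 nm, from 164 to 179 at 58 nm and from 146 to 153 without particles, while EIF4A2 runs the other way from 61.4 to 66.2 down to 49.6 to 52.2.

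In the helicase group, 3 of 5 genes rose at 35 nm (EIF4H, EIF4A3 and EIF4B) and 1 fell (EIF4A2), where 20.2% of all genes tested rose and 15.2% fell. EIF4A2, a paralog of the main helicase EIF4A1, was at 61.4, 66.2, 64.4 and 64.6 FPKM in controls, 49.6, 50.9, 52.2 and 50.1 at 35 nm, and 58.5, 57.4, 57.5 and 57.1 at 58 nm. The 3 groups do not overlap, with 35 nm lowest and 58 nm between. Its log2 change was -0.33 ± 0.0333 at 35 nm (adjusted p = 1.34e-05, limma) and -0.15 ± 0.0333 at 58 nm (adjusted p = 0.024, limma), and 58 nm was above 35 nm by 0.18 (adjusted p = 0.00446, limma). The call at 58 nm was lost when any of control replicates 2 to 4 or 58 nm replicates 2 and 3 was left out, with an adjusted p of up to 0.0794.

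EIF4H, which like eIF4B stimulates eIF4A, was at 85.1, 86.8, 84.5 and 92.0 FPKM in controls, 124, 117, 125 and 113 at 35 nm, and 103, 99.6, 95.0 and 90.0 at 58 nm. The 35 nm libraries lie above all others, and 1 of the 58 nm libraries lies within the control range. The log2 change was 0.46 ± 0.0491 at 35 nm (adjusted p = 2.47e-05, limma), 0.15 ± 0.0491 at 58 nm (adjusted p = 0.109), and -0.31 for 58 nm against 35 nm (adjusted p = 0.00209).

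EIF4B was at 55.3, 56.1, 55.9 and 55.6 FPKM in controls, 60.9, 61.8, 65.8 and 66.3 at 35 nm, and 64.2, 63.1, 63.3 and 62.5 at 58 nm. Both particle groups lie above the controls and overlap each other. It rose by 0.19 ± 0.0346 at 35 nm (adjusted p = 0.00112, limma) and by 0.18 ± 0.0346 at 58 nm (adjusted p = 0.0103), and the sizes differed by -0.0086 with a 95% interval from -0.08 to 0.07. Of the 3 genes called at 58 nm, EIF4B alone stayed called there under each of the alternatives run, while its call at 35 nm was lost under quantile normalization (0.07, adjusted p = 0.136).

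EIF4A3, the helicase of the exon junction complex, was at 14.5, 14.4, 14.5 and 14.6 FPKM in controls, 16.5, 17.0, 18.1 and 17.1 at 35 nm, and 15.1, 15.8, 15.4 and 14.7 at 58 nm. The controls are nearly level and every particle library is above them. It rose by 0.23 ± 0.0395 at 35 nm (adjusted p = 0.000745, limma), while 0.07 ± 0.0395 at 58 nm had an adjusted p of 0.363. 58 nm against 35 nm gave -0.16 (adjusted p = 0.0196), a call lost without 35 nm replicate 3 or 58 nm replicate 4, with an adjusted p of up to 0.0674.

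The ratio of EIF4A2 to EIF4A3 within a library was 4.43 ± 0.149 in controls, 2.95 ± 0.0552 at 35 nm and 3.78 ± 0.117 at 58 nm, with no overlap between groups. EIF4A1 was listed at only 3.03, 2.63, 2.74 and 3.32 FPKM in controls, 3.49, 3.00, 3.70 and 3.14 at 35 nm, and 3.22, 3.49, 2.64 and 2.49 at 58 nm, or 135 to 197 reads in a library. Its groups overlap and it was not called. Of its exon length, 48.6% is shared on the same strand with genes that include the read-through gene SENP3-EIF4A1, which was listed at 0.0539 to 0.296 FPKM. How reads of shared exons were counted is unstated, so the level of EIF4A1 is uncertain.

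Among the eIF4G scaffolds, 2 of 3 genes rose at 35 nm, where 20.2% of all genes tested rose. EIF4G1, the main one, was at 71.7, 75.2, 70.8 and 74.6 FPKM in controls, 95.1, 91.4, 98.3 and 92.7 at 35 nm, and 80.1, 77.9, 80.2 and 75.5 at 58 nm. The 3 groups do not overlap. It rose by 0.36 ± 0.0365 at 35 nm (adjusted p = 1.37e-05, limma), was 0.10 ± 0.0365 above control at 58 nm (adjusted p = 0.145), and gave a difference of -0.26 for 58 nm against 35 nm (adjusted p = 0.000872).

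EIF4G2, which lacks the eIF4E-binding region, had the highest FPKM of the 3, at 123 ± 1.37, 133 ± 3.96 and 127 ± 4.56. Its rise at 35 nm was 0.11 ± 0.0354 (adjusted p = 0.0242, limma), and it fell out of the calls when any of 5 libraries was left out (control replicates 3 and 4 and 35 nm replicates 2, 3 and 4), with an adjusted p of up to 0.0604. Under quantile normalization its change was -0.0124. The call was kept after removal of length and GC trends, and the highest change under any alternative was 0.27. EIF4G3 was not called. The ratio of EIF4G1 to EIF4G3 was 3.21 ± 0.141 in controls, 4.35 ± 0.326 at 35 nm and 3.48 ± 0.337 at 58 nm.

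eIF4G and the binding proteins meet eIF4E through the same short motif, which starts with tyrosine and ends in leucine and another hydrophobic residue. Capitals mark the tyrosine and leucine codons in these 39 coding bases of GRCh38, shown because EIF4G1 rose and EIF4EBP2 fell at 35 nm:
EIF4G1: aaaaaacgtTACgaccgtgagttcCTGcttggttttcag
EIF4G3: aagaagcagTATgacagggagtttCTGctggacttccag
EIF4EBP2: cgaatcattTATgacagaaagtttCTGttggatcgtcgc
EIF4EBP3: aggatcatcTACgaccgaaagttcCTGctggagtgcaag
They lie at chr3:184322850-184322888 (plus strand), chr1:20895434-20895472 (minus), chr10:70419919-70419957 (plus) and chr5:140548911-140548949 (plus). Against the stretch of EIF4G1, that of EIF4G3 differs at 12 bases, that of EIF4EBP2 at 18 and that of EIF4EBP3 at 15. EIF4ENIF1 also holds the motif, in a stretch that differs at 25 bases; neither it nor that of EIF4EBP1 is shown. The motif was not found in the coding sequence of EIF4G2.

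EIF4EBP1, the mTOR-regulated repressor of eIF4E, had the largest change of the set. It was at 55.8, 64.1, 61.2 and 69.9 FPKM in controls, 109, 98.3, 101 and 91.0 at 35 nm, and 81.9, 72.1, 67.9 and 68.3 at 58 nm. All 35 nm libraries lie above all others, while 58 nm overlaps the controls. Its log2 change was 0.66 ± 0.0764 at 35 nm (adjusted p = 4.29e-05, limma; ratio of means 1.59), 0.21 ± 0.0764 at 58 nm (adjusted p = 0.152), and -0.46 for 58 nm against 35 nm (adjusted p = 0.00275).

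EIF4EBP2, the second repressor, was at 19.3, 19.7, 18.7 and 20.1 FPKM in controls, 16.7, 18.6, 16.0 and 18.1 at 35 nm, and 18.0, 19.7, 20.1 and 19.0 at 58 nm. The 35 nm libraries lie below the controls by a narrow margin. It fell by 0.16 ± 0.0521 on the log2 scale at 35 nm (adjusted p = 0.0309, limma), a call lost when any of control replicates 1, 2 and 4 or 35 nm replicates 1 and 3 was left out, with an adjusted p of up to 0.0895. EIF4EBP1 was 3.22 ± 0.244 times as abundant as EIF4EBP2 in controls, 5.79 ± 0.751 times at 35 nm and 3.80 ± 0.517 times at 58 nm.

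The target of both, EIF4E, was low in FPKM and not called. Its 444 to 560 reads in a library are divided by an exon length of 14067 bases. EIF4E was at 3.21, 3.57, 3.53 and 3.44 FPKM in controls, 3.45, 3.15, 3.15 and 3.94 at 35 nm, and 3.45, 3.50, 3.63 and 3.33 at 58 nm, so the groups overlap. Its log2 change at 35 nm was -0.0087, with a 95% interval from -0.15 to 0.13 (adjusted p = 0.934, limma). EIF4E2, a cap-binding protein linked to translational repression, was at 8.68 ± 0.362, 10.2 ± 0.649 and 9.07 ± 0.634 FPKM and rose at 35 nm by 0.21 ± 0.0580 (adjusted p = 0.0126). EIF4ENIF1, which carries eIF4E into the nucleus, was not called. EIF4EBP3 shares 73.4% of its exon length with the read-through gene ANKHD1-EIF4EBP3 and had at most 8 reads.

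In eIF3, 6 of 14 genes rose at 35 nm (EIF3B, EIF3I, EIF3F, EIF3G, EIF3K and EIF3A), 2 fell (EIF3E and EIF3H) and 6 were not called, EIF3C and EIF3CL among them. That is 57.1% called, against 35.4% of all genes tested (20.2% higher and 15.2% lower). No eIF3 gene was called at 58 nm against control by limma. At an unadjusted p under 0.05 there were 2, and voom on recovered reads called 1 (EIF3F). Of the core subunits shared with budding yeast, EIF3A, EIF3B, EIF3G and EIF3I rose at 35 nm, and EIF3C could not be measured. Only EIF3B of those that rose kept its call under each alternative run. EIF3J was not called at 35 nm (0.02, adjusted p = 0.785, limma). Of the subunits that budding yeast lacks, EIF3F and EIF3K rose, EIF3E and EIF3H fell, and EIF3D, EIF3L and EIF3M were not called. After removal of each library's trends with gene length and GC content, 3 eIF3 genes were higher and 0 lower at 35 nm (limma), and EIF3A, EIF3B and EIF3F were the 3. The shares of all genes called after that removal are given below with GC content.

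EIF3B was at 25.9, 24.2, 24.5 and 26.6 FPKM in controls, 33.4, 32.6, 36.1 and 33.6 at 35 nm, and 29.2, 28.3, 27.2 and 27.0 at 58 nm. The 3 groups do not overlap. It rose by 0.41 ± 0.0448 at 35 nm (adjusted p = 2.84e-05, limma), was 0.14 ± 0.0448 above control at 58 nm (adjusted p = 0.103), and gave a difference of -0.27 for 58 nm against 35 nm (adjusted p = 0.0026).

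EIF3I was at 95.5, 94.1, 96.2 and 93.4 FPKM in controls, 108, 104, 111 and 106 at 35 nm, and 106, 94.2, 98.3 and 101 at 58 nm. The 35 nm libraries lie above the controls and 58 nm spans both. It rose by 0.18 ± 0.0382 at 35 nm (adjusted p = 0.00293, limma; 0.488 under quantile normalization), and was not called at 58 nm (0.07 ± 0.0382, adjusted p = 0.329).

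EIF3A, the largest subunit, was at 57.4, 59.0, 57.1 and 64.5 FPKM in controls, 64.7, 66.6, 66.1 and 66.1 at 35 nm, and 56.9, 63.4, 60.7 and 60.3 at 58 nm. The highest control lies just under the lowest 35 nm library. It rose by 0.15 ± 0.0440 at 35 nm (adjusted p = 0.0206, limma), a call lost without control replicate 1 or 3 (adjusted p up to 0.0641), under upper-quartile rescaling (adjusted p = 0.101) and under quantile normalization (0.02, adjusted p = 0.811). EIF3K rose by 0.19 ± 0.0559 at 35 nm (adjusted p = 0.0202), a call lost without control replicate 4 or 35 nm replicate 3 (adjusted p up to 0.0600).

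EIF3E was at 46.5, 47.7, 49.5 and 47.3 FPKM in controls, 40.9, 43.3, 41.6 and 43.6 at 35 nm, and 48.0, 43.8, 46.8 and 46.1 at 58 nm. The 35 nm libraries lie below all others. It fell by 0.17 ± 0.0384 on the log2 scale at 35 nm (adjusted p = 0.00448, limma), and 58 nm was 0.12 above 35 nm (adjusted p = 0.0597). EIF3H was at 27.5 ± 0.427, 25.3 ± 0.850 and 28.5 ± 1.70 FPKM, with a change of -0.12 at 35 nm (adjusted p = 0.0487) and a difference of 0.17 for 58 nm against 35 nm (adjusted p = 0.0289). The first of these calls was lost in 10 of the 12 fits that left out 1 library and the second in 4, with an adjusted p of up to 0.129 and 0.0720. EIF3F, a subunit with deubiquitinase activity, was at 23.7 ± 1.81 FPKM at 35 nm and 23.8 ± 2.13 at 58 nm, against 20.0 ± 0.790 in controls. It rose at 35 nm by 0.24 ± 0.0641 (adjusted p = 0.0122); the change of 0.24 at 58 nm had an adjusted p of 0.0522 (0.105 without 58 nm replicate 1). EIF3G rose at 35 nm by 0.35 ± 0.0966 (adjusted p = 0.015).

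EIF3C and EIF3CL could not be measured apart. These near-identical genes lie on chromosome 16 in GRCh38 (28688558 to 28735730 on the plus strand and 28379579 to 28403879 on the minus strand), and 97.2% of the 50-base words of EIF3CL occur in EIF3C. Reads given to EIF3C ranged from 113 to 2356 over the 12 libraries and those given to EIF3CL from 33 to 941. EIF3CL took 1.8% to 89.3% of the pair's reads, and even the summed FPKM ranged 10.7-fold over the 12 libraries, with a range of 6.23-fold within controls, 7.77-fold at 35 nm and 2.35-fold at 58 nm. For comparison, the sum of EIF2S3 and its copy EIF2S3B ranged 1.16-fold. Neither gene was called, and no change in eIF3c can be read from this table.

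**Figure D3:**
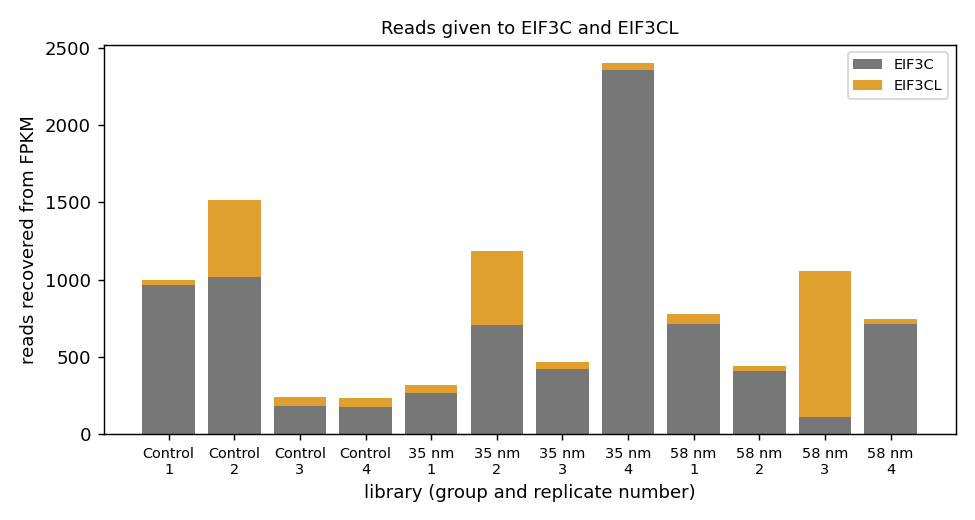
Reads recovered from FPKM for EIF3C (grey) and its copy EIF3CL (orange), stacked, in each of the 12 libraries. The sums run from 238 to 2399 reads with no order by group, and the copy holds from 1.8% to 89.3% of them.

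Few of the genes that carry and recycle the initiator tRNA changed. The 3 eIF2 subunits EIF2S1, EIF2S2 and EIF2S3 were not called in any comparison on the deposited FPKM. EIF2S3 was called lower at 35 nm under 4 alternatives: voom on recovered reads (-0.11, adjusted p = 0.0378), upper-quartile rescaling (-0.13, adjusted p = 0.00969), removal of the length trend alone (-0.15, adjusted p = 0.0074) and quantile normalization (-0.23, adjusted p = 0.00113). EIF2S1, the subunit that stress kinases phosphorylate, was at 22.1, 24.5, 24.3 and 24.8 FPKM in controls, 25.1, 25.6, 23.6 and 24.9 at 35 nm, and 24.1, 23.3, 25.5 and 24.6 at 58 nm. The groups overlap, and the 95% interval of its change at 35 nm ran from -0.05 to 0.15 (log2).

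All 5 eIF2B genes were also not called by limma in any of the 3 comparisons; 0 of them had an unadjusted p under 0.05 and voom on recovered reads called 0. The catalytic subunit EIF2B5 was at 7.11, 7.05, 6.11 and 6.60 FPKM in controls, 7.05, 6.93, 7.12 and 6.88 at 35 nm, and 7.83, 6.35, 6.23 and 6.52 at 58 nm. These groups overlap too, with a 95% interval at 35 nm from -0.09 to 0.20.

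EIF2A, a separate protein that can bring initiator tRNA to the ribosome without eIF2, was the exception in this group. It was at 22.5, 23.6, 23.3 and 21.9 FPKM in controls, 20.8, 21.4, 19.5 and 19.7 at 35 nm, and 22.8, 22.0, 23.2 and 23.3 at 58 nm. The 35 nm libraries lie below all others, and 58 nm overlaps the controls. It fell by 0.16 ± 0.0416 on the log2 scale at 35 nm (adjusted p = 0.00974, limma). At 58 nm its change from control was -0.0003 ± 0.0416, and it was 0.16 above 35 nm (adjusted p = 0.0265), a call lost in 4 of the 12 fits that left out 1 library (35 nm replicates 3 and 4 and 58 nm replicates 3 and 4; adjusted p up to 0.0786).

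In the eIF1 group, EIF1 and its close paralog EIF1B moved in opposite directions at 35 nm. EIF1 was at 111 ± 1.47 FPKM at 35 nm and 103 ± 7.68 at 58 nm, against 98.4 ± 4.18 in controls, a rise of 0.18 ± 0.0488 at 35 nm (adjusted p = 0.014, limma) that quantile normalization reduced to 0.04 (adjusted p = 0.406). EIF1B was at 17.9 ± 1.25, 15.3 ± 1.63 and 16.5 ± 0.755 FPKM and fell at 35 nm by 0.21 ± 0.0694 on the log2 scale (adjusted p = 0.0291), although 35 nm replicate 2, at 17.5 FPKM, lies within the control range. That call was lost when control replicate 3 or 4, or 35 nm replicate 1 or 3, was left out (adjusted p up to 0.0890). The ratio of EIF1 to EIF1B was 5.50 ± 0.212 in controls, 7.31 ± 0.804 at 35 nm and 6.29 ± 0.506 at 58 nm. EIF1AD rose at 35 nm with an adjusted p of 0.0429, which was lost in 8 of 12 fits that left out 1 library, with an adjusted p of up to 0.122, and EIF1AX was not called.

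EIF6, which blocks premature joining of ribosomal subunits and takes part in making the large subunit, was at 47.8, 48.6, 47.3 and 50.5 FPKM in controls, 76.1, 70.3, 80.3 and 69.4 at 35 nm, and 64.8, 55.4, 49.4 and 47.5 at 58 nm. All 35 nm libraries lie above all others, and 58 nm spreads from the controls to 64.8 in the library that stood apart. It rose by 0.60 ± 0.0808 at 35 nm (adjusted p = 0.000147, limma; ratio of means 1.52), was not called at 58 nm (0.15 ± 0.0808, adjusted p = 0.332; 0.06 without replicate 1), and gave a difference of -0.45 for 58 nm against 35 nm (adjusted p = 0.0042). Of its exon length, 17.4% is shared with AL121753.1, a gene at 0.360 to 1.58 FPKM.

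Genes that rose were richer in GC than genes that fell. The 17 that rose at 35 nm had a median GC content of 51.2% in their longest transcript (40.5% to 65.5%), the 6 that fell 40.0% (37.9% to 43.7%) and the 25 not called 45.5%. Over the 48 genes the rank correlation of change with GC content was 0.62 at 35 nm, 0.58 at 58 nm and -0.55 for 58 nm against 35 nm; these genes share the same 12 libraries and the library-wide GC trends given above. After each library's trends with gene length and GC content were removed, those correlations were 0.17, 0.03 and -0.22, and at 35 nm 18 genes were higher and 2 lower, where 14.7% and 12.9% of all genes were so called. Of the 17 that rose, 13 were still called, and of the 6 that fell, 2 (EIF4A2 and EIF1B).

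The largest rises were smaller but still called after that removal: 0.33 for EIF5A, 0.31 for EIF4G1 and for EIF4H, 0.36 for EIF3B and for EIF6, and 0.42 for EIF4EBP1. EIF4A3 stayed called at 0.23, which was also its value on the deposited FPKM. EIF4A2 stood at -0.19 (adjusted p = 0.00631, limma). The falls of EIF3E (-0.02), EIF2A (-0.08), EIF4EBP2 (-0.07) and EIF3H (0.0031) were no longer called, nor were the rises of EIF3I, EIF3K, EIF3G and EIF1AD. EIF2S1, EIF1AX, EIF2D, EIF5 and EIF5B were then called higher, at 0.18, 0.29, 0.17, 0.10 and 0.12. Some rises were larger under an alternative than on the deposited FPKM. Over all alternatives run, the highest values at 35 nm were 0.40 for EIF3F, 0.27 for EIF4G2 and 0.24 for EIF3A. On the deposited FPKM these genes were at 0.24, 0.11 and 0.15. The part of the GC and length trends in the results was not tested beyond their removal.

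**Figure D4:**
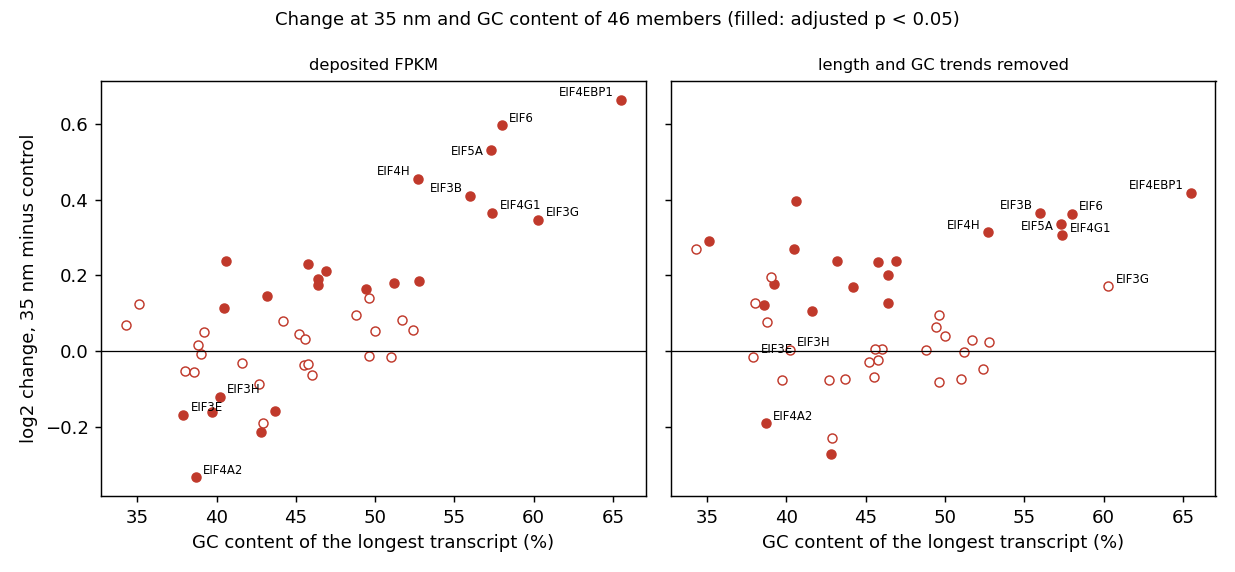
Log2 change at 35 nm against GC content of the longest transcript (%) for 46 initiation factor genes (EIF3C and EIF3CL are left out), from the deposited FPKM on the left and after removal of each library's length and GC trends on the right. Filled points had an adjusted p under 0.05; on the left the change climbs with GC content, with EIF4EBP1 (65.5% GC, 0.66) at the top right and EIF4A2 (38.7% GC, -0.33) at the bottom left, and on the right the climb is smaller while EIF5A, EIF6, EIF3B, EIF4G1, EIF4H and EIF4EBP1 remain filled.

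A promoter motif is given next because it was found in several of the genes that rose and in 1 that fell. It was the only motif counted here. Since it was chosen with the calls known, its counts by call are no test, and a link to the calls was not tested. The E-box CACGTG, the core site of MYC and related factors, was looked for in the 250 bases before the most upstream RefSeq start of each gene (GRCh38.p14); it reads the same on both strands. It was found for 11 of the 43 genes with a promoter entry, or 25.6%, and for 6.5% of all 27305 promoters. Those promoters include genes that were not tested here, and no share over the tested genes alone was taken. EIF4EBP1, EIF6, EIF5A and EIF3B, which were among the largest rises, were not among the 11. Only 14 of the 17 genes that rose had an entry, so absence from the 11 need not mean that the motif was missing. Among genes with an entry it was found for 6 of the 14 that rose at 35 nm, 1 of the 4 that fell and 3 of the 22 not called. The sites of the 6 risers and of EIF1B, which fell, are shown with the motif in capitals, read on the strand of the gene:
EIF4G1: ggctgtggctgtCACGTGacggggcggggg
EIF4G1: ccctgcgccggtCACGTGggggcgccggct
EIF4H: acgccgccgcacCACGTGggctgcagagcg
EIF4B: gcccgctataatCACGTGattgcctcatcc
EIF4A3: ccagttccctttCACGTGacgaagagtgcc
EIF3F: aaagctctagctCACGTGgtgtatattcag
EIF3K: cgaggaagaagtCACGTGgcagccggaaag
EIF1B: gcgcgggacggtCACGTGggaggggccgcg
The motif starts 144 and 67 bases before the start of EIF4G1 (chr3:184314450-184314479 and chr3:184314527-184314556), 199 before EIF4H (chr7:74174145-74174174), 22 before EIF4B (chr12:53006422-53006451), 121 before EIF4A3 (chr17:80147232-80147261), 68 before EIF3F (chr11:7987257-7987286), 103 before EIF3K (chr19:38619073-38619102) and 54 before EIF1B (chr3:40309641-40309670). EIF4E and EIF5A2, which were not called, each hold 2 of these motifs, and EIF2B3, also not called, holds the motif too. So does EIF4EBP3, which was not tested. A match describes the letters only; binding was not measured.

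The regulators around the initiation factors were looked at next, in lists of the pathway's other genes. For the counts in these lists, 35.4% of all genes tested were called at 35 nm (20.2% higher and 15.2% lower) and 4.13% at 58 nm. Of the 4 eIF2 kinases, 2 fell at 35 nm (EIF2AK2 and EIF2AK4). EIF2AK2, the double-stranded RNA sensor PKR, was at 40.0, 41.3, 46.8 and 44.5 FPKM in controls, 19.5, 20.7, 17.1 and 21.7 at 35 nm, and 21.6, 24.6, 23.0 and 25.1 at 58 nm. Both particle groups lie far below the controls and overlap each other at 1 library. It fell by 1.09 ± 0.0730 on the log2 scale at 35 nm (adjusted p = 4.07e-07, limma) and by 0.85 ± 0.0730 at 58 nm (adjusted p = 1.16e-05), larger than the change of any initiation factor called. After the removal of length and GC trends it fell by 0.90 and 0.76.

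EIF2AK4 (GCN2, the sensor of uncharged tRNA) fell by 0.16 at 35 nm (adjusted p = 0.0402, limma), a call lost in 9 of the 12 fits that left out 1 library (adjusted p up to 0.0944) and after trend removal (adjusted p = 0.106). Of 5 phosphatase genes, PPP1CA, a catalytic subunit of protein phosphatase 1, rose at 35 nm, from 56.3 ± 2.77 to 70.2 ± 3.59 FPKM, and PPP1R15A (GADD34), which directs it to eIF2, was not called, at 29.2 ± 3.80 and 31.1 ± 0.574 FPKM. Of 7 tested targets of the integrated stress response, 2 rose at 35 nm: ATF4, the transcription factor at its centre, from 108 ± 3.43 to 131 ± 5.84 FPKM (adjusted p = 0.00113), and ATF5, from 8.32 ± 0.937 to 11.8 ± 0.231 FPKM. After trend removal ATF4 stood at 0.07 (adjusted p = 0.0934) and ATF5 at 0.26 (adjusted p = 0.0201). At 58 nm, ATF4 was at 108 ± 7.78 FPKM, and ATF3, a target of it, fell by 0.33 (adjusted p = 0.0355), a call lost without control replicate 3 or 4 or 58 nm replicate 2, 3 or 4 (adjusted p up to 0.106). The other 5 targets were not called at 35 nm on the deposited FPKM; after trend removal TRIB3 (-0.26, adjusted p = 0.00219) and DDIT3 (-0.59, adjusted p = 0.00945) were lower there, and TRIB3, SESN2 and ATF3 were lower at 58 nm. Between the sizes 4 of the 7 targets were lower at 58 nm (ATF4, ATF5, CHAC1 and SESN2), or 57.1% against 11.4% of all genes called, and 3 were after trend removal. In fits that left out 1 library, CHAC1 lost that call in 5 of 12 and SESN2 in 8, with an adjusted p of up to 0.0604 and 0.12.

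The list of cap-binding signalling held genes of the mTOR pathway, and also MKNK1 and MKNK2. Of its 12 tested genes, 5 rose at 35 nm and 1 fell (TSC1, a brake on mTOR), where 35.4% of all genes were called. MTOR itself was not called, at 13.6 ± 0.677, 13.7 ± 0.678 and 13.4 ± 0.745 FPKM. AKT1S1 (PRAS40, an inhibitory subunit) rose from 17.5 ± 0.866 to 24.8 ± 1.01 FPKM, LARP1, which binds mRNAs of the translation machinery, from 39.7 ± 1.13 to 46.8 ± 1.82, and RHEB, the activator, from 10.3 ± 0.785 to 12.6 ± 1.21. RHEB lost its call without control replicate 2 or 35 nm replicate 1 (adjusted p up to 0.0512) and after trend removal (adjusted p = 0.0886), which left 2 higher and 1 lower in this list. The other 2 that rose were RPS6KB2 and MLST8, whose calls were lost in 4 and 8 of the 12 fits that left out 1 library (adjusted p up to 0.0705 and 0.12). At 58 nm, 0 genes of the list were called by limma, 3 had an unadjusted p under 0.05 and voom called 1. Among 10 partners of the cap complex, PABPC4 rose at 35 nm, and PDCD4, an inhibitor of eIF4A, and FMR1 fell; FMR1 was at 21.0 ± 0.714, 17.3 ± 1.60 and 17.5 ± 0.532 FPKM and fell at 58 nm too (adjusted p = 0.0284), a call lost without control replicate 2, 3 or 4 or 58 nm replicate 1, 2 or 3 (adjusted p up to 0.0941). After trend removal, PDCD4 (adjusted p = 0.0811) and FMR1 (adjusted p = 0.497) were not called at 35 nm. PABPC1, the main poly(A)-binding protein, was at 337 ± 3.38, 319 ± 5.17 and 351 ± 5.27 FPKM, not called against control and higher at 58 nm than at 35 nm by 0.13 (adjusted p = 0.0113).

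Among all genes tested, 20.2% rose and 15.2% fell at 35 nm, to set beside the counts that follow. Of 9 accessory proteins, 4 rose at 35 nm, with RACK1, ABCF1 and BZW2 ahead. RACK1, a ribosomal scaffold, went from 134 ± 3.01 to 157 ± 6.08 FPKM. Of the 2 enzymes that make hypusine on eIF5A, DOHH rose at 35 nm from 17.6 ± 1.15 to 23.6 ± 1.92 FPKM (adjusted p = 0.000782, limma; 0.245 after trend removal), and DHPS was not called at 1.95 ± 0.306 and 1.58 ± 0.154 FPKM. Of 6 tested elongation factors, 4 rose at 35 nm: EEF1A1, EEF1B2, EEF1D and EEF2, the last from 743 ± 15.5 to 886 ± 52.1 FPKM. EEF1G, one of the elongation factors, was listed at 0. Of 5 tested termination and recycling genes, PELO and ETF1 rose. Of 9 mitochondrial translation factors, TUFM rose at 35 nm and 3 fell: MTRF1, a release factor, from 5.36 ± 0.386 to 3.63 ± 0.337 FPKM, MTIF2, the mitochondrial counterpart of eIF5B, from 14.1 ± 0.659 to 12.3 ± 0.0854 FPKM, and MTIF3. The call of MTIF3 was lost in 6 of the 12 fits that left out 1 library (adjusted p up to 0.114). After trend removal EEF1A1, EEF1B2, EEF1D and EEF2 were still higher at 35 nm, and MTRF1, MTIF2 and MTIF3 lower. It left 5 of 5 termination and recycling genes and 6 of 9 accessory genes higher, and put DHPS lower (-0.38, adjusted p = 0.0153). The shares of all genes called after trend removal are given above with GC content.

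**Figure D5:**
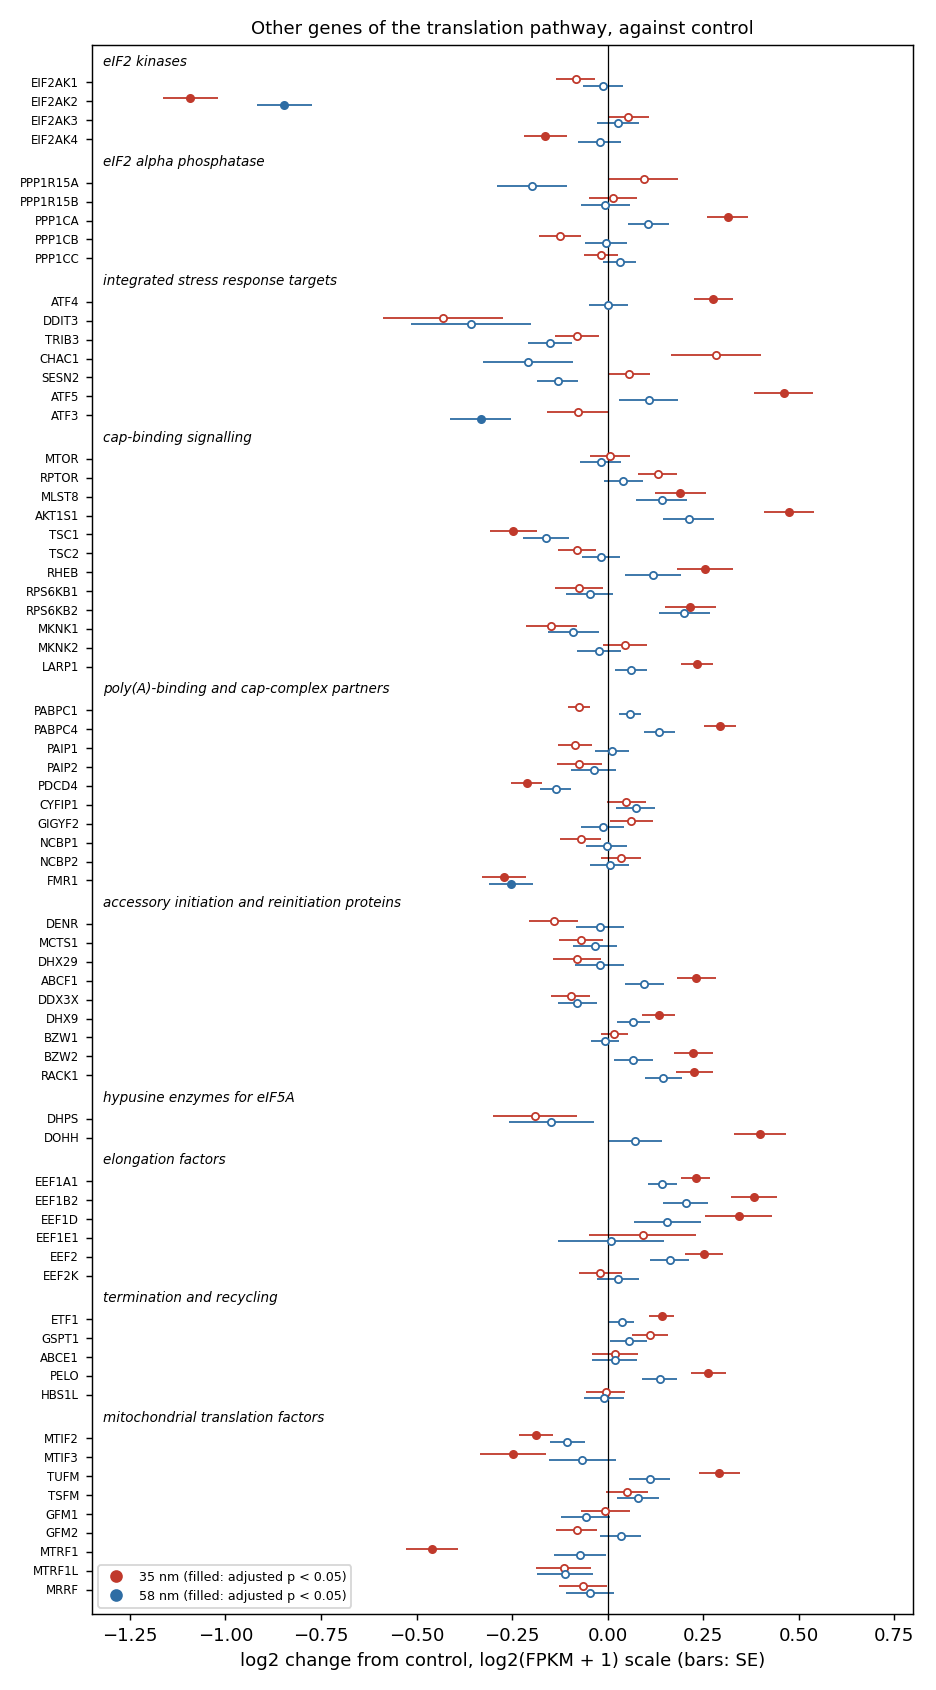
Log2 change from control of the other genes of the translation pathway by list, with 35 nm in red and 58 nm in blue, standard errors as bars and filled points where the adjusted p was under 0.05. EIF2AK2 lies farthest from 0, at -1.09 for 35 nm and -0.85 for 58 nm, while most elongation factors lie to the right of the line.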

How the data were processed

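The authors deposited 1 table of FPKM for 58735 genes in 12 libraries of total RNA. The submitters' processing notes name Bowtie 0.12.2 as aligner and hg19 as build, yet all 58735 gene coordinates and exon lengths equal those of GENCODE 29, an annotation of GRCh38; coordinates are given as deposited. No source used here gives the counting tool, its rule for shared reads or the strand setting. FPKM times gene length gave whole reads for 100% of values within 0.01 reads.

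The 12176 genes whose mean reached 1 FPKM were fitted with limma 3.58.1 in R 4.3.3 on log2(FPKM + 1), with 3 group means over all libraries and a trended, robust prior. This scale understates changes of low genes. P-values are two-sided and adjusted by Benjamini-Hochberg over those genes, with a threshold of 0.05. The fit was tested on simulated reads that held no GC or length trends and no library that stood apart. That test does not cover these features of the data. Overlaps, identity and GC content come from GENCODE 29, and promoters from RefSeq. No clear pairing by replicate number was seen. Of 12 pairs with the same number, 1 had a correlation of deviations over 0.1 (-0.07 to 0.16), against 2 of 36 pairs with other numbers (-0.16 to 0.11). The highest value was that of 35 nm replicate 1 with 58 nm replicate 1, and a shared handling of the particle groups was not tested. Members and gene lists were chosen with earlier results of these data known. Values for each library are given for the 12 members of smallest p and for 11 set by role. Alternatives were other pseudocounts, filters and scalings, voom on recovered reads, removal of length and GC trends, a replicate block, summed copies and leaving out each library.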

Additional observations from a re-analysis of the deposited data

Results flagged for a closer look

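In 8 of the 144 groups of 4 libraries that the 48 tested genes form, 1 library stood far from the other 3; chance flags about 1 in 20 groups. The 3 flags of EIF3CL were all on high libraries: 14.8 FPKM in control replicate 2 against 1.02 to 1.90 in the others, 14.6 in 35 nm replicate 2 against 1.38 to 1.56, and 31.4 in 58 nm replicate 3 against 1.05 to 1.88. EIF3F was at 27.0 FPKM in 58 nm replicate 1 against 22.6 to 23.1 in the others of its group. EIF4G2 was at 127.1 FPKM in 35 nm replicate 1 against 134 to 135. EIF1AX was at 32.1 FPKM in control replicate 1 against 33.8 to 34.2, EIF2B1 at 17.9 FPKM in control replicate 4 against 19.2 to 19.4, and EIF5A2 at 1.13 FPKM in control replicate 3 against 1.42 to 1.48.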

How the results depend on the processing

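Apart from the fits that left out 1 library, counts of called initiation factors at 35 nm moved by over 1.5 times under 3 settings. Removing length and GC trends left 2 lower in place of 6, dropping the filter on low values left 3 lower, and quantile normalization left 9 higher in place of 17. At 58 nm against control, 1 was higher in place of 2 and 0 were lower in place of 1 after removal of both trends (limma; 9 higher and 1 lower at an unadjusted p under 0.05), and 1 was higher without the filter. For 58 nm against 35 nm, the 3 higher became 0 after removal of both trends (4 at an unadjusted p under 0.05), 1 without the filter, 1 with only the 8 libraries compared, 5 with upper-quartile rescaling and 6 with voom on recovered reads. Leaving out 1 library gave 14 to 17 higher and 3 to 6 lower at 35 nm, 1 to 3 higher and 0 to 1 lower at 58 nm, and 1 to 4 higher and 6 to 10 lower between the sizes. The count of 3 lower at 35 nm, also a move of over 1.5 times, came without control replicate 4 and without 35 nm replicate 1 or 3. All these counts are given without the share of all genes called under the same setting. Of the 23 genes called at 35 nm, 3 changed sign under some alternative, as did 15 of the 25 not called, 2 of which were then called (EIF5 and EIF5B). The 5 values were EIF3H (0.0031), EIF3I (-0.0014), EIF5 (0.10) and EIF5B (0.12) with both trends removed, and EIF4G2 (-0.0124) under quantile normalization; the cause was not tested. Of the 23, 10 kept the call under each alternative run, as did 1 of 3 at 58 nm and 6 of 10 between the sizes.

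With the replicate number as a block, 16 were higher and 6 lower at 35 nm, 3 higher and 1 lower at 58 nm, and 2 higher and 7 lower between the sizes.

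Depth of 9472317 to 10678269 gene reads limits genes near 1 FPKM such as EIF5A2.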
